A study of Homo sapiens with 3 samples.

Results

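Chromosome 19 zinc finger genes were taken as the genes of the deposited expression table that lie on chromosome 19, carry a symbol made of ZNF, a number and at most 1 further letter, and have a protein-coding transcript. The rule took 229 of the 26108 genes listed, and 28 other rows of the chromosome with a symbol beginning in ZNF fell outside it. They were measured in LX-2, an established and immortalised human hepatic stellate cell line, in a study of how the hormone FGF19 acts on the stellate cells of the liver. The mRNA of 1 culture given vehicle, 1 given 50 ng/mL of recombinant human FGF19 (rhFGF19) and 1 given 100 ng/mL of it was sequenced, so each group is 1 library and no difference below has a replicate check. Doses follow the sample titles; the sample descriptions attach them the other way round and give 72 h and 73 h of treatment, where the design text of the series gives 24 h.

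Most zinc finger genes of this chromosome arose by tandem duplication and lie side by side in clusters. Their proteins bind DNA through runs of C2H2 fingers, each a short fold around a zinc ion, joined by a conserved linker, and many carry a KRAB domain at the other end, which recruits the scaffold protein TRIM28 (KAP1) and with it histone methylation and heterochromatin proteins. KRAB zinc finger proteins are best known for silencing transposable elements, and they are usually present at low mRNA levels.

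The stellate label was checked against a list of 12 stellate and fibroblast markers, of which 11 were listed and 7 were at 1 FPKM or more in all 3 libraries. FPKM is the number of fragments mapped to a transcript, scaled by its length and by all fragments mapped in the library; the table holds no counts, so the depth behind a value is unknown. Vimentin (VIM) was the most abundant at 439, 654 and 649 FPKM in the vehicle, 50 and 100 ng/mL libraries, COL1A1 stood at 78.4, 108 and 104, and TAGLN, of the contractile apparatus, at 223, 118 and 126. Other stellate markers were at or near 0 in all 3 libraries: COL1A2 did not exceed 0.14, DES 0.08 and LUM 0.04, and LRAT, the enzyme that esterifies retinol for storage, was listed at 0. Of the markers of other cell types, the 2 epithelial genes listed of 3 summed to 0.12, 0.10 and 0.0 FPKM and the 3 endothelial genes to 0.50, 0.40 and 0.47. The 6 hepatocyte genes summed to 11.3, 12.5 and 11.5, led by SERPINA1, and the 2 blood cell genes listed of 4 to 48.1, 44.4 and 40.1, nearly all of it CD68, a lysosomal protein that is not limited to macrophages. The part of such cells or of such expression in the results below was not tested.

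The finger itself shows how the members differ. The stretches below are the first finger of the spacing C-X2-C-X12-H-X3-H that is followed by a linker, from the members most raised and most lowered in both rhFGF19 libraries among those with a mean of at least 1 FPKM, and they are shown because the most raised and the most lowered members differ in base composition. Each is a coding stretch of 78 bases within 1 exon of a GENCODE release 29 transcript (GRCh38), the last exon except in ZNF653, where it is exon 8 of 9, read 5′ to 3′ on the coding strand, with the 15 bases of the linker in capitals. Of the 10 members that the rule for named genes set as most raised or most lowered, 8 hold such a finger. The most raised were ZNF146 (plus strand, chr19:36236660-36236737), ZNF266 (minus strand, chr19:9414208-9414285), ZNF473 (plus strand, chr19:50045740-50045817), ZNF587 (plus strand, chr19:57859304-57859381) and ZNF45 (minus strand, chr19:43914527-43914604).
ZNF146: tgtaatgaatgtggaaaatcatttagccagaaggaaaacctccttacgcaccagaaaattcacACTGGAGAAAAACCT
ZNF266: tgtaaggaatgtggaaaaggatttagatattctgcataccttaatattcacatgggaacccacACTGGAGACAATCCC
ZNF473: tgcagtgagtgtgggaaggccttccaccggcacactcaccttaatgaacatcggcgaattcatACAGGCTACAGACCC
ZNF587: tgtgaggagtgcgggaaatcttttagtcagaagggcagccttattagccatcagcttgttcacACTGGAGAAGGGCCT
ZNF45: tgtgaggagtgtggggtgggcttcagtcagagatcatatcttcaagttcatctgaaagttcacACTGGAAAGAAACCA

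The most lowered with such a finger were ZNF787 (minus strand, chr19:56088893-56088970), ZNF358 (plus strand, chr19:7519783-7519860) and ZNF653 (minus strand, chr19:11484047-11484124).
ZNF787: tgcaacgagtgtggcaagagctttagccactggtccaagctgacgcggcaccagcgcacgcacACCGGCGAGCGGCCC
ZNF358: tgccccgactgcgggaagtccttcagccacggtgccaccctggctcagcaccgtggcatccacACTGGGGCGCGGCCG
ZNF653: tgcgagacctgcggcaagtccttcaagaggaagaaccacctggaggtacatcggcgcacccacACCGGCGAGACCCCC

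The raised stretches held 38.5% to 53.8% G and C and the lowered ones 64.1% to 71.8%. At the last base of the codons, which often leaves the amino acid unchanged, the raised stretches held 30.8% to 53.8% G and C and the lowered ones 84.6% to 92.3%. The genes were picked as extremes of fold change, and the 5 raised were under 1 FPKM with vehicle and had to be higher with rhFGF19 to reach a mean of 1, while the 3 lowered were above it with vehicle, so the ranges describe these genes alone. A finger of this kind was found in 217 members, and its last codon bases had a median of 34.6% G and C in the 198 with a KRAB domain and 80.8% in the 19 without.

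A KRAB domain was assigned to 200 of the 229 members, from the orthology terms in the deposited table or from a KRAB motif ahead of the first finger, and 29 had neither. Members had a median of 12 fingers, from 0 found in ZNF738 to 32 in ZNF91, a repressor of SVA retrotransposons. The median was 13 fingers with KRAB and 8 without. The G and C content of the coding sequence had a median of 41.6% with KRAB and 64.9% without, whereas that of the 205 promoters matched in RefSeq (GRCh38.p14, 250 bases before to 50 after the start) was close, at 59.0% and 63.8%, beside 58.7% over all 35116 promoters of that table. The grouping by KRAB domain and the division of members at 50% GC content used below were chosen after the values had been seen.

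The members together held nearly the same share of each library and divided it differently. Their FPKM summed to 296.5 with vehicle and to 288.1 and 288.2 in the 50 and 100 ng/mL libraries, or 0.0981%, 0.104% and 0.102% of the 302243, 276690 and 281606 FPKM listed over all genes. Values given as 3 numbers are in this order throughout. The median member was at 0.17, 0.46 and 0.47 FPKM, so most of these genes were near the floor of the table in the vehicle library. In bulk RNA, fewer cells that express a gene and less RNA per cell cannot be told apart. A value of 1 FPKM or more was listed for 32, 49 and 51 members, and 15, 7 and 4 were listed at 0. ATRX, a chromatin remodeller that nearly all cells express, was listed at 0 in all 3 libraries as well, so a 0 here is read as no more than a listed value.

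Members with and without KRAB lay on opposite sides of vehicle in sum. With KRAB, the 200 members summed to 74.4, 138.3 and 135.6 FPKM. Without KRAB, the 29 members summed to 222.1, 149.9 and 152.6. The 10 most abundant members, of which 9 lack KRAB, made up 61.1% of the members' sum with vehicle and 40.2% and 41.5% of it with rhFGF19.

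**Figure D1:**
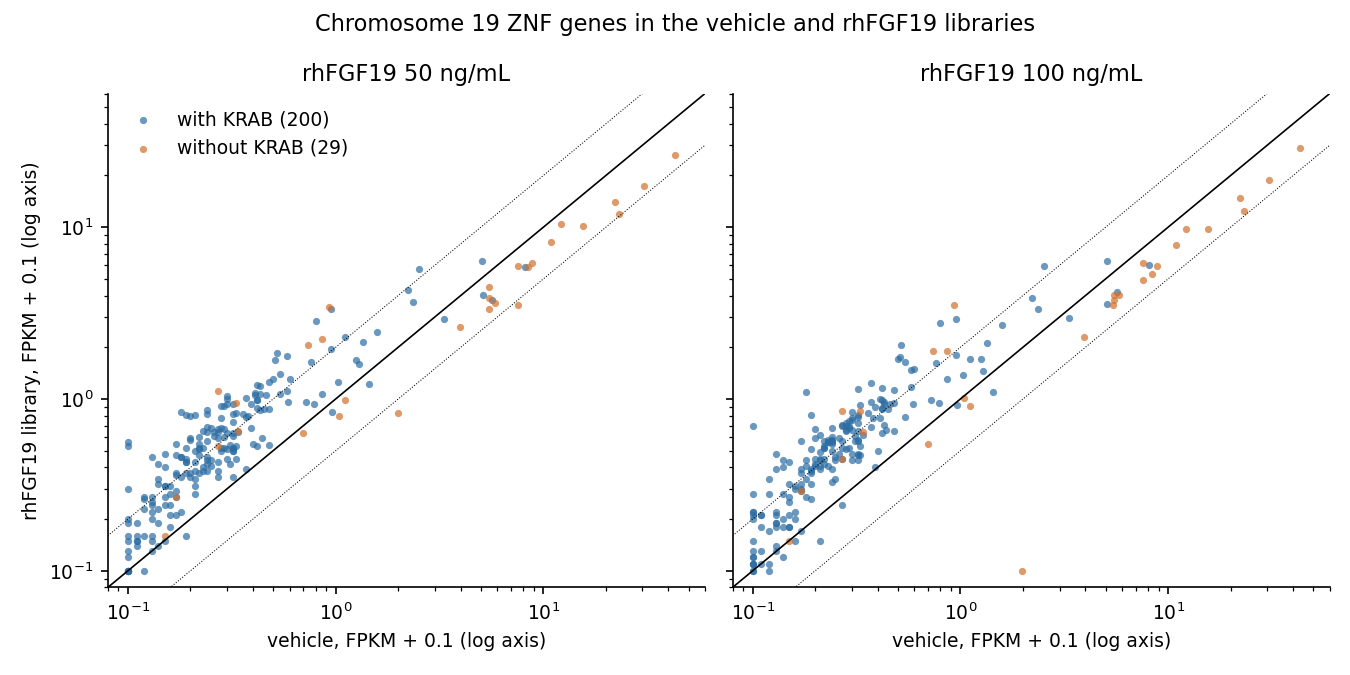
FPKM + 0.1 of each of the 229 members in the vehicle library (x axis) and in an rhFGF19 library (y axis), both on log axes, with the line of equality solid and 2-fold differences dotted. Members with KRAB (200) lie mostly above the line at low values, and those without KRAB (29) mostly below it at high values.

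Listed above vehicle in both rhFGF19 libraries were 183 of the 229 members, against 48.4% of all genes in the table, and 27 were below vehicle in both, against 24.7%. Both rhFGF19 libraries are set against the same vehicle library, so their directions are not independent. Of the KRAB members 175 of 200 were above vehicle in both and 7 below, and of the others 8 of 29 were above and 20 below. The background differed with base composition: of the 177 KRAB members under 50% GC, 89.8% were above vehicle in both, beside 86.3% of the 7167 other protein-coding genes under 50%. Of the 21 members without KRAB at 50% GC or more, 20 were below vehicle in both, or 95.2%, beside 49.7% of the 7831 other protein-coding genes at 50% or more. The median GC content was 65.1% in these 21 and 57.7% in the 7831, so the groups are not matched. In narrower bands, with members of either kind, 90.9% of 11 members from 60% to 65% GC were below in both. Among other protein-coding genes of that band it was 71.4%. From 65% to 75% it was 100% of 11 members and 72.9% of the others.

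Fold changes are differences of log2(FPKM + 0.1), which understates the change of low genes, and were taken where the 3 libraries averaged 0.5 FPKM or more (the filter below). The 86 members that passed and the 143 that did not are described apart, since 39 of the 86 were under 0.5 FPKM with vehicle and had to be higher with rhFGF19 to pass. At the edge of the filter stood ZNF547, with a mean of 0.487, and ZNF587B, with 0.503. The 143 below it reached at most 0.76 FPKM in any library. Of them, 123 were above vehicle in both rhFGF19 libraries and 1, ZNF626, was below. With no filter, 86.3% of other protein-coding genes under 50% GC were above in both and 3.92% below, and of all genes 48.4% and 24.7%.

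At 50 ng/mL, 43 of the 86 members were more than 2-fold above vehicle, against 39.4% of all genes tested, and 2 were more than 2-fold below, against 1.78%. The 86 had a median log2 fold change of 1.02, beside 0.62 over all 12447 genes tested. At 100 ng/mL, 41 were more than 2-fold above, against 38.5%, and 1 below, against 1.58%, with a median of 0.94 beside 0.61. The 1 below was ZNF497, listed at 0 in that library, so it is counted from a listed value alone. Of the KRAB members 61 passed, and they made up 38 of the 43 and 36 of the 41, with medians of 1.17 and 1.09. The 25 others that passed had medians of −0.50 and −0.53. Only 24 of the 61 had at least 0.5 FPKM with vehicle, and the rest had to be higher with rhFGF19 to pass. Under 50% GC, 33 of the 44 KRAB members that passed were more than 2-fold above vehicle at the lower dose and 32 at the higher. Among other protein-coding genes under 50% GC that passed, it was 79.0% and 78.3%. After quantile normalization 10 members were more than 2-fold above vehicle, against 9.49% of all genes, and 12 below, against 9.95%, at the lower dose. At the higher, 9 were above, against 8.68%, and 13 below, against 9.22%, while the KRAB median stayed above 0 (0.47 and 0.42) and that of the others below it (−0.87 at both doses). With a pseudocount of 1 in place of 0.1, 3 members were more than 2-fold above vehicle at the lower dose, against 17.6% of all genes, and 0 below, against 0.627%, with a median of 0.44. With the trend on transcript length removed, 12 were above, against 14.1%, and 17 below, against 16.4%, at the lower dose. More were then below than above, as over all genes, and the members' median stayed above 0. With the GC trend described below removed, the KRAB and other medians came to 0.13 and 0.12 with KRAB and to −0.06 and −0.00 without, and over members of at least 0.5 FPKM with vehicle to −0.06 at both doses with KRAB and to −0.05 and 0.01 without, so the KRAB median changed side.

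The scaling moved the median of all genes. Over all genes tested it was 0.62 and 0.61 at the lower and the higher dose as deposited, 0.77 and 0.74 after rescaling to TPM (each library set to the same total), 0.39 and 0.40 after setting the median ratio of well-expressed genes to 0, and 0.11 and 0.09 after quantile normalization. Relative to it, the median of the 86 members was higher by 0.40 and 0.33 as deposited, by 0.45 and 0.42 as TPM, by 0.40 and 0.33 with the median ratio set to 0, and by 0.11 and 0.15 after quantile normalization. The same 86 were used each time, 39 of which had to be higher with rhFGF19 to pass. With the GC trend removed the differences were 0.09 and 0.02. Over genes of at least 0.5 FPKM with vehicle, as deposited, they were −0.54 and −0.52.

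Among members of at least 0.5 FPKM with vehicle, 47 in all and 24 with KRAB, 10 were more than 2-fold above vehicle at 50 ng/mL, against 33.1% of the 11121 genes so filtered, and 2 below, against 2.95%. At 100 ng/mL 8 were above, against 32.3%, and 1 below, again ZNF497, against 2.79%. The median of these 47 lay below 0, at −0.19 and −0.17, where that of all genes so filtered was 0.35 at both doses. The direction of the median over members therefore turned with the filter, while within the groups, with no trend removed, it did not: the 24 KRAB members had medians of 0.43 and 0.48, and the 23 without KRAB −0.52 and −0.54.

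The most abundant members were GC-rich genes, 9 of 10 without KRAB, and they were lower with rhFGF19. ZNF428, which has a single finger, was at 43.1, 26.4 and 28.95 FPKM, a log2 fold change of −0.71 and −0.57. ZNF358 was at 30.5, 17.4 and 18.7 (−0.81 and −0.70), and 17.4% of its 100-base windows also occur in transcripts of another gene. ZNF787 was at 23.0, 11.8 and 12.3 (−0.96 and −0.90) and ZNF581 at 22.0, 13.9 and 14.7 (−0.66 and −0.58). In each of the 4 genes both rhFGF19 libraries lay below vehicle and close to each other. The next in level, ZNF580 at 15.5, 10.1 and 9.62 FPKM, ZNF574 at 12.03, 10.4 and 9.64, ZNF865 at 10.8, 8.06 and 7.75, ZNF579 at 8.74, 6.08 and 5.83, and ZNF526 at 7.44, 5.86 and 6.07, were likewise lower in both. ZNF574 and ZNF865 turned to values above 0 once the trend on GC content was removed. ZNF324, the 1 KRAB gene among the 10, was at 8.02, 5.80 and 5.94 FPKM (−0.46 and −0.43) with a GC content of 60.1%, and shares 29.4% of its 100-base windows with other genes. ZNF524 was at 7.46, 3.42 and 4.80 FPKM (−1.10 and −0.63) and ZNF653, which shares 17.4% of its windows with other genes, at 3.85, 2.54 and 2.21 (−0.58 and −0.77).

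The members most raised at a mean of at least 1 FPKM were 4 KRAB genes and ZNF146, which consists of little else but fingers. ZNF146 was at 0.83, 3.35 and 3.43 FPKM, a log2 fold change of 1.89 and 1.92 at a GC content of 42.2%. ZNF266 was at 0.42, 1.76 and 1.95 (1.84 and 1.98), and ZNF473, a protein of histone pre-mRNA processing, at 0.70, 2.73 and 2.67 (1.82 and 1.79). ZNF587 was at 0.41, 1.58 and 1.65 (1.72 and 1.78) and ZNF45 at 0.85, 3.23 and 2.84 (1.81 and 1.63). All 5 lay under 50% GC. They were picked for the size of their fold change and, under 1 FPKM with vehicle, had to be higher to reach the mean of 1, so their values with the trend on GC content removed, 0.42 to 0.97, carry that choice. ZNF587 shares 12.4% of its 100-base windows with other genes, chiefly ZNF417, and reads from those windows cannot be assigned to 1 gene.

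Members with a described role were mostly low. ZNF274, which is known for recruiting the methyltransferase SETDB1 to zinc finger genes themselves, was at 0.85, 1.86 and 1.71 FPKM (1.04 and 0.93). The imprinted gene ZNF331 was at 0.27, 0.69 and 0.86 (1.09 and 1.38), and ZNF8, which shares 18.8% of its 100-base windows with other genes, at 0.26, 0.72 and 0.73 (1.19 and 1.21). ZNF146 is given above, and the others did not pass the filter. Of the repressors of retrotransposons, ZNF91 was at 0.15, 0.31 and 0.34 FPKM and ZNF93 at 0.07, 0.27 and 0.20. ZNF224, a repressor of aldolase A, was at 0.11, 0.71 and 0.52, ZNF420, an inhibitor of p53 activity, at 0.12, 0.50 and 0.43, and ZNF649 at 0.07, 0.45 and 0.22. ZNF675, which binds TRAF6, was at 0.07, 0.37 and 0.47 and ZNF85 at 0.05, 0.14 and 0.22. ZNF568 was at 0.01, 0.06 and 0.11. ZNF382 was listed at 0 with vehicle and at 0.09 and 0.11 with rhFGF19, ZNF43 at 0, 0.02 and 0.01, and ZNF154, often methylated in tumours, at 0 with vehicle and in the 50 ng/mL library and at 0.02 in the 100 ng/mL library. At these levels the 2 decimals of the table leave few steps between values.

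Along the chromosome, a gap of over 500 kb between members was taken to begin a new cluster, and 10 stretches held at least 5 members, with 213 members in all and 16 outside. In 9 of the 10 clusters the median member, with no filter on level, was above vehicle at both doses, and in cluster 9 it was below. Clusters 3 and 4 came below 0 once the trend on GC content was removed, and the other 8 kept their side under each scaling tried. Counted over members that passed the filter instead, 8 clusters had a median above 0 at both doses, 4 had one with the trend removed, and 6 had one at both doses over members of at least 0.5 FPKM with vehicle.

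**Figure D2:**
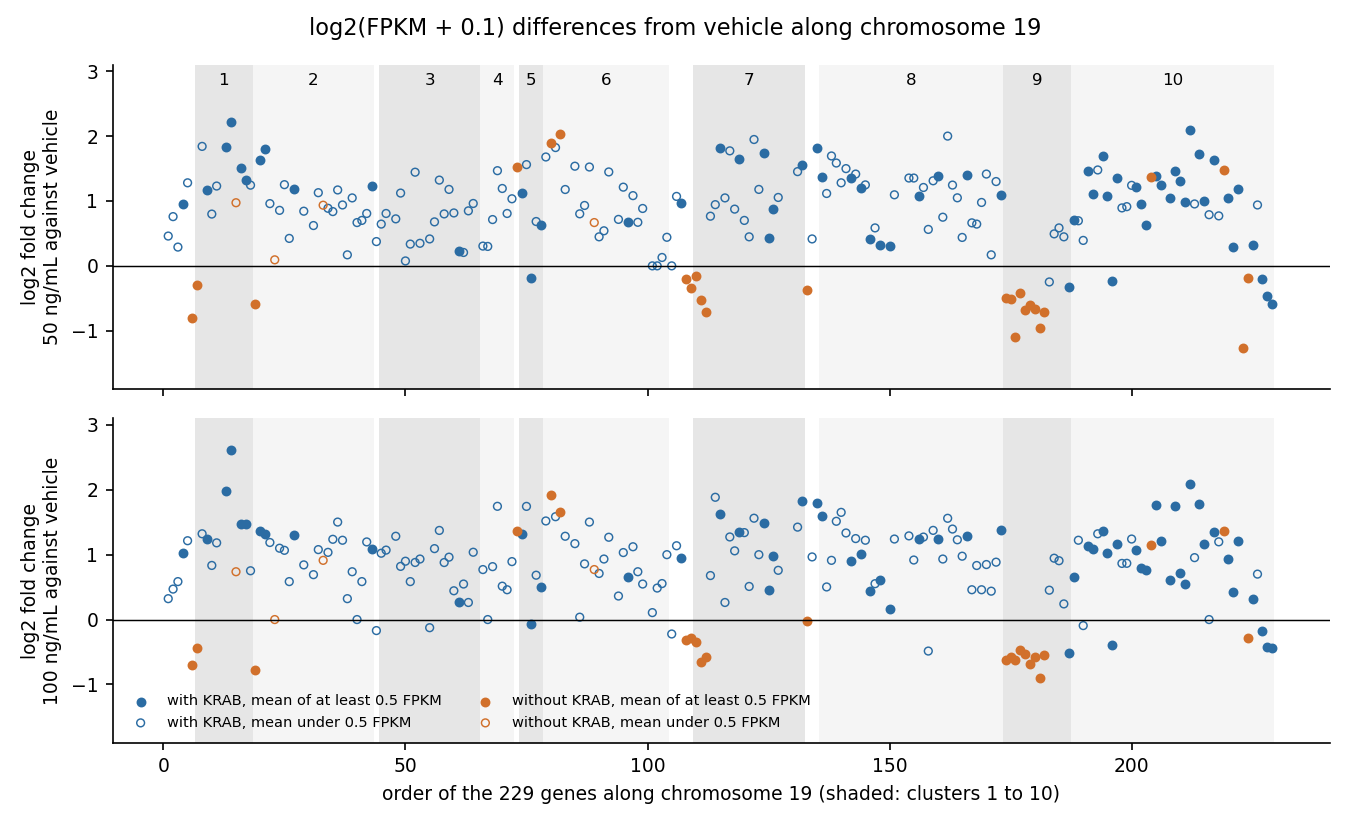
Log2(FPKM + 0.1) difference from vehicle at 50 ng/mL (top) and 100 ng/mL (bottom) for members in their order along chromosome 19, with the 10 clusters shaded and numbered, filled points for a mean of at least 0.5 FPKM and open points for lower ones. Members listed at 0 in a library of the pair (16 at 50 ng/mL and 17 at 100 ng/mL) are not drawn. Cluster 9 and the start of cluster 7 hold runs of members without KRAB below 0.

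Cluster 9 (chr19:55476617-56626481) stood apart from the other clusters in level, composition and direction. It holds 14 members, 5 of them with KRAB, at a median GC content of 62.9%, and their FPKM summed to 109.2, 68.4 and 70.3. Of the 14, 10 were below vehicle in both rhFGF19 libraries: the 9 without KRAB, which include ZNF580, ZNF581, ZNF787, ZNF865, ZNF579 and ZNF524, and the KRAB gene ZNF71 (named after the values were seen) at 5, 3.95 and 3.45 FPKM. The other 4 carry KRAB, lie under 50% GC and were at most at 0.42 FPKM. Below vehicle in both were also 71.4% of other protein-coding genes from 60% to 65% GC, the band of the cluster's median, and 24.7% of all genes. The median log2 fold change of the 10 members that passed the filter was −0.63 and −0.58 at the lower and the higher dose, and −0.14 and −0.12 once the trend on GC content was removed. The other protein-coding genes inside the cluster, 8 of 10 of which passed, had medians of −0.42 and −0.46 at a median GC content of 66.3%.

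In clusters 1, 2, 5, 6 and 8, made mostly of KRAB genes, the sums were above vehicle. Most of their members were above it in both rhFGF19 libraries. The same held for 86.3% of other protein-coding genes under 50% GC and 48.4% of all genes. Cluster 8 (chr19:51571283-53580269) holds 38 members, all with KRAB, and summed to 8.45, 20.6 and 19.9 FPKM, with 35 members above vehicle in both rhFGF19 libraries and 0 below. Cluster 6 (chr19:36182276-37817300), with 26 members of which 23 carry KRAB, summed to 4.19, 12.4 and 11.8 FPKM, with 23 above and 0 below, and its leading member was ZNF146. Cluster 1 (chr19:8509678-9793180), with 12 members, summed to 9.54, 17.1 and 16.6 FPKM, led by ZNF317 at 2.43, 5.61 and 5.86 (1.17 and 1.24). In these 3 clusters the summed level with rhFGF19 was 1.74 to 2.95 times that with vehicle. Over the 10 members of cluster 8 that passed the filter, the median went from 1.15 and 1.13 to −0.05 and −0.29 once the trend on GC content was removed. Those of clusters 1 and 6 were then 0.43 and 0.46 over 6 members and 0.48 and 0.15 over 3. Only 3 of these members in cluster 8, 2 in cluster 1 and 2 in cluster 6 had at least 0.5 FPKM with vehicle. Their medians as deposited were 0.32, 0.44 and 1.28 at the lower dose. The others had to be higher with rhFGF19 to pass, so the medians over all that passed carry that choice. Cluster 2 (chr19:11483427-12640098), with 25 members, summed to 6.97, 11.2 and 10.9 FPKM and was led by ZNF653, which was lower. Cluster 5 (chr19:34677639-34964229), with 5, summed to 3.95, 6.42 and 6.45 and was led by ZNF792 at 2.26, 3.55 and 3.24. Over the members that passed, 5 in cluster 2 and 3 in cluster 5, the medians were above 0 as deposited and became −0.18 and −0.10 in cluster 2 and −0.34 and −0.19 in cluster 5 with the trend removed, and −0.17 and −0.29 in cluster 5 after quantile normalization. Only 1 of the 5 in cluster 2, ZNF653, had at least 0.5 FPKM with vehicle, with −0.58 at the lower dose. The others had to be higher with rhFGF19 to pass. ZNF792 and ZNF880, which led cluster 8 at 1.19, 1.49 and 1.35 FPKM, were above vehicle as deposited and below it after quantile normalization or removal of the GC trend.

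The lowest clusters are neighbours along the chromosome. Cluster 3 (chr19:19668796-21852068), with 21 members, all KRAB, summed to 2.79, 5.67 and 6.12 FPKM, and cluster 4 (chr19:22634324-24129968), with 7, to 0.53, 1.58 and 1.54. They have the lowest median GC contents of the 10, 40.8% and 35.9%, and 1 member of the 28 passed the filter, ZNF738 at 0.69, 0.83 and 0.85 FPKM. Its log2 fold change of 0.24 and 0.27 was small for a gene of its GC content of 42.9%, and became −1.15 and −1.10 with the trend removed and −0.62 and −0.58 after quantile normalization.

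Clusters 7 and 10 were also made mostly of KRAB genes, with KRAB in 20 of 23 and in 38 of 42 members. Cluster 10 (chr19:57191500-58481230), the largest with 42 members, summed to 40.8, 57.3 and 54.7 FPKM, with 33 above vehicle in both and 6 below. Among other protein-coding genes from 45% to 50% GC, the band of the cluster's median of 49.1%, 81.2% were above in both and 7.28% below. Of its members 31 passed the filter, with medians of 1.07 and 1.02, and 0.32 and 0.23 once the trend on GC content was removed; 16 of the 31 were under 0.5 FPKM with vehicle and had to be higher to pass, and the other 15 had a median of 0.32 at the lower dose. Cluster 7 (chr19:43525497-44500524), with 23 members, summed to 56.3, 45.5 and 47.2 FPKM although 19 of them were above vehicle in both, because ZNF428 alone held most of the sum. Its median GC content, 45.3%, lies in the band given for cluster 10. The 9 of its members that passed the filter had medians of 0.87 and 0.98, and the 5 of at least 0.5 FPKM with vehicle one of −0.15 at the lower dose. Outside the clusters, the 16 members summed to 53.8, 42.0 and 42.8 FPKM, led by ZNF358.

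**Figure D3:**
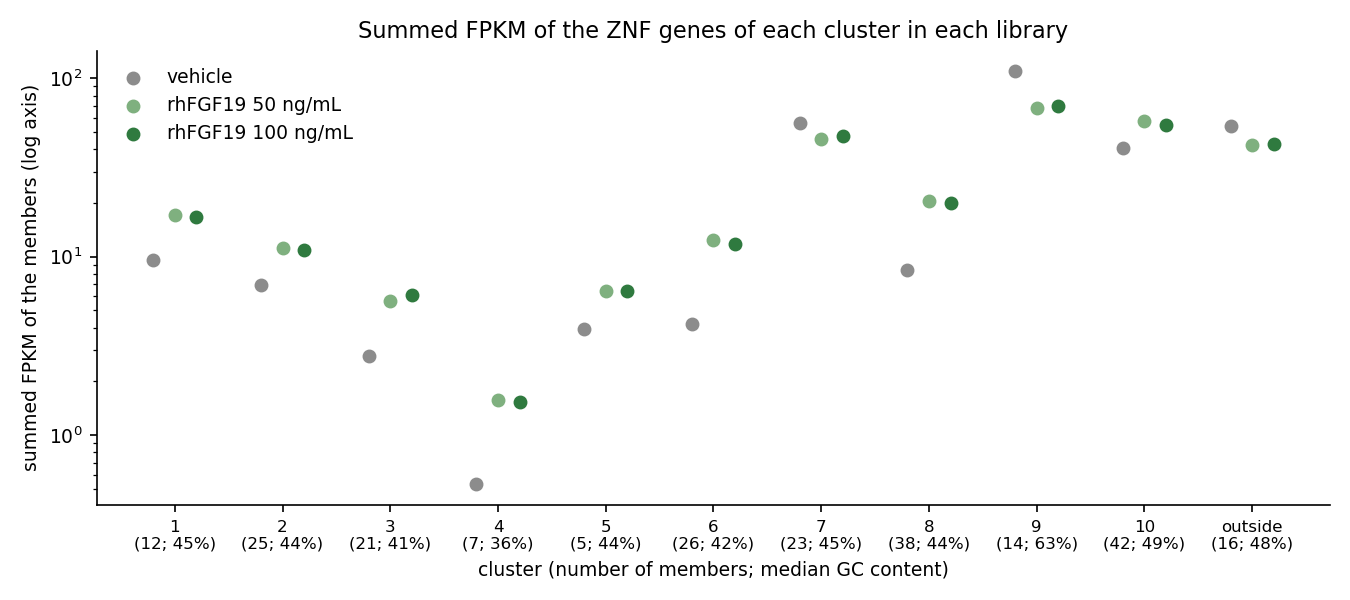
Summed FPKM of the members of each cluster (log axis) in the vehicle, 50 ng/mL and 100 ng/mL libraries, with the number of members and their median GC content under each cluster. The sum was higher in both rhFGF19 libraries in clusters 1 to 6, 8 and 10 and lower in clusters 7 and 9 and outside the clusters.

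Genes of other kinds were set beside the members. The 44 other protein-coding genes lying inside the clusters, with a median GC content of 58.5%, had median log2 fold changes of −0.41 and −0.44 over the 25 that passed, and 24 of the 44 were below vehicle in both rhFGF19 libraries and 8 above, or 54.5% and 18.2%. Of the 907 other protein-coding genes of chromosome 19, 65.6% were below and 21.1% above, with medians of −0.45 and −0.43. The 239 protein-coding ZNF genes of other chromosomes, with a median GC content of 47.4%, were taken as another comparison: 182 were above vehicle in both libraries and 39 below, or 76.2% and 16.3%. The 140 that passed had medians of 0.78 and 0.73, where the 86 members had 1.02 and 0.94. Over genes of at least 0.5 FPKM with vehicle the order turned, with 0.49 and 0.41 for 105 of them and −0.19 and −0.17 for 47 members. Of these 47, 23 lack KRAB, and GC content was not matched. With the GC trend also removed, the medians were 0.22 at both doses for the 105 and −0.05 and −0.0150 for the 47.

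Fold change was lower in members of higher GC content among those at 0.5 FPKM or more with vehicle, but not in the bands under 50% described below. Over the 47 members of at least 0.5 FPKM with vehicle, Spearman's rho between transcript GC content and log2 fold change at 50 ng/mL was −0.758, and over the 9613 other protein-coding genes at that level −0.805; the genes of one library pair share its libraries and are not independent. With no filter rho was −0.173 over the 229 members and −0.701 over the 14998 others. Within the KRAB members it was −0.466 over the 24 of at least 0.5 FPKM with vehicle and 0.106 over all 200, so no order by GC content was seen among them as a whole. Members also differed in level along the same axis, with a rho of 0.555 between GC content and FPKM with vehicle over the 229. The 8 members without KRAB under 50% GC, among them, picked with the values known, ZNF260 at 0.17, 1.01 and 0.75 FPKM and ZNF329 at 0.64, 1.95 and 1.80, summed to 2.40, 8.37 and 7.86. Of the 8, 7 were above vehicle in both, or 87.5%, beside 86.3% of other protein-coding genes under 50%. The 23 KRAB members at 50% or more summed to 39.8, 45.8 and 44.7, with 16 above and 6 below, or 69.6% and 26.1%. Of the 7831 other protein-coding genes at 50% or more, 35.9% were above and 49.7% below. The median GC content was 52.2% in the 23 and 57.7% in the 7831, so they are not matched. The 17 of the 23 that passed had medians of 0.63 and 0.50 as deposited, of 0.29 and 0.32 over the 13 of at least 0.5 FPKM with vehicle, and of −0.22 and −0.27 after quantile normalization.

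**Figure D4:**
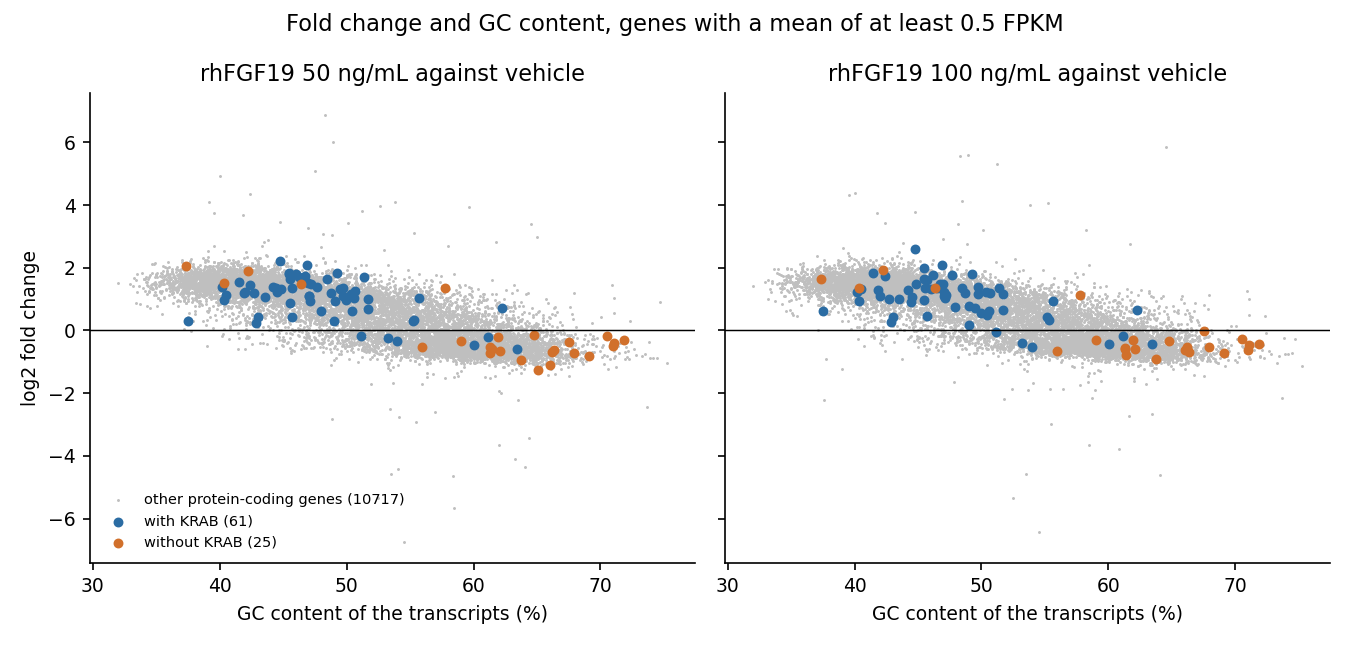
GC content of the transcripts (x axis, %) and log2 fold change against vehicle (y axis) at 50 ng/mL (left) and 100 ng/mL (right) for genes that passed the filter: members with KRAB (61), members without (25) and other protein-coding genes (10717, grey). ZNF497, listed at 0 at 100 ng/mL, is not drawn on the right. Members lie within the band of the other genes.

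Within bands of GC content, members and other protein-coding genes had close medians above 60%. Under 50%, the members' medians were higher in bands of higher GC content, where those of other genes were lower. At 50 ng/mL and from 40% to 45% GC, the median was 1.28 for 18 members and 1.45 for 2085 others, and from 60% to 65% it was −0.52 for 11 members and −0.49 for 1538 others. From 65% to 75% it was −0.61 for 11 members and −0.62 for 407 others. Between these, from 45% to 50%, it was 1.38 for 28 members and 1.14 for 1869 others, from 50% to 55% 0.84 for 10 and 0.49 for 1809, and from 55% to 60% 0.31 for 6 and −0.22 for 1977. Under 40% GC, 2 members passed, with a median of 1.18 beside 1.54 for 1031 others. Among genes of at least 0.5 FPKM with vehicle, the order from 45% to 50% turned, with 1.03 for 8 members and 1.12 for 1650 others, and 0.94 and 1.10 at 100 ng/mL; from 40% to 45% 4 members had a median of 0.77 beside 1.45. The bands hold few members, and their difference from other genes was not tested.

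With the trend on GC content over all genes removed, 4 of the 86 members were more than 2-fold above vehicle at 50 ng/mL, against 3.85% of genes, and 2 below, against 5.07%. At 100 ng/mL 4 were above, against 3.39%, and 2 below, against 4.51%. The 2 were ZNF738 and ZNF497, the latter listed at 0 in that library. The medians were then 0.10 and 0.03, beside 0.01 over all genes at both doses. Outside the rule for named genes and chosen after the values were seen, ZNF134, a member without KRAB at 57.8% GC, was at 0.76, 2.12 and 1.80 FPKM and remained past 2-fold at both doses with the trend removed (1.54 and 1.31). The KRAB gene ZNF264 at 62.3% GC, with 0.49, 0.86 and 0.83 FPKM, went from 0.70 and 0.66 as deposited to 1.13 and 1.07. These values hang on the GC content used, the median over a gene's transcripts: the coding sequence alone has 46.0% in ZNF134 and 50.3% in ZNF264. How far GC content, RNA quality or library preparation and how far rhFGF19 set the members' values cannot be told apart with 1 library a group.

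The rhFGF19 libraries hardly differed from each other. At 100 against 50 ng/mL, 0 of the 86 members were more than 2-fold higher, against 0.852% of all genes, and 1 was more than 2-fold lower, against 0.884%. The median log2 difference was −0.04, beside 0.00 over all genes, and rho with GC content was −0.0038. The 1 gene was ZNF497, at 1.89 FPKM with vehicle and 0.73 at the lower dose (−1.26) and listed at 0 at the higher; it overlaps 4 other listed genes, and no fold is given against the 0.

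The partners of KRAB proteins were taken from a list of 39 co-repressor genes. TRIM28, the scaffold that binds KRAB, was at 220.6, 154.5 and 156.5 FPKM (−0.51 and −0.50), at a GC content of 59.4%. Of the 39, 33 were above vehicle in both rhFGF19 libraries, against 48.4% of all genes, and 5 below, against 24.7%: TRIM28, MBD3 at 66.3, 37.1 and 37.1 FPKM (−0.84 at both doses), SUV39H1 at 47.0, 31.5 and 32.4 (−0.58 and −0.53), EHMT2 at 18.3, 15.2 and 15.8, and MTA2 at 116.9, 104.5 and 106.0. In all, 24 of the 37 that passed were more than 2-fold above vehicle at the lower dose, against 39.4% of all genes tested, and 21 at the higher, against 38.5%. At either dose 0 were more than 2-fold below, against 1.78% at the lower and 1.58% at the higher. At the lower dose the 24 became 4 after quantile normalization, against 9.49% of all genes, and 1 with the GC trend removed, against 3.85%. The methyltransferase SETDB1 was at 1.47, 3.20 and 3.12 FPKM and its partner ATF7IP at 0.92, 2.89 and 2.90. The heterochromatin proteins CBX1, CBX3 and CBX5 were at 12.7, 34.7 and 34.3, at 1.67, 5.44 and 5.35, and at 2.35, 7.94 and 7.51. The maintenance DNA methyltransferase DNMT1 was at 10.3, 21.0 and 19.9, MORC2 at 1.66, 4.05 and 3.08, and MPHOSPH8 of the HUSH silencing complex at 1.28, 4.53 and 4.37. The list's median GC content was 49.5%, and its median log2 fold change went from 1.13 to 0.27 at 50 ng/mL once the trend on GC content was removed. Of a list of 19 other C2H2 genes of the chromosome, 13 were listed and 7 passed, with medians of 0.11 and 0.31. Of the 7, 0 were past 2-fold in either direction, against 39.4% of all genes higher at the lower dose and 38.5% at the higher, and with the GC trend removed ZBTB7A was, at 1.07 and 1.18.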

How the data were processed

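The FPKM values were used as deposited by the authors, at 2 decimals. The submitters' processing notes name Bowtie 0.12.2, HISAT2 2.0, StringTie 1.3.0 and the builds mm8 and hg19 with no role given, while the coordinates of all 229 members overlap the same genes in GRCh38. Fold changes were differences of log2(FPKM + 0.1) between single libraries, for genes averaging at least 0.5 FPKM, counted past 2-fold. GC content and length trends were loess fits (span 0.3) over all genes. Clusters were split at gaps over 500 kb, with at least 5 members. KRAB came from orthology terms or a sequence motif. Sharing was the share of a gene's 100-base windows found in other genes of GENCODE release 29. Named members were the 10 highest in mean, the 5 most raised and most lowered at a mean of at least 1 FPKM, the top of each cluster, those crossing 2-fold between the rhFGF19 libraries and a list with described roles; others are marked. Members and lists were chosen with earlier results of these data known. Alternatives changed pseudocount, filter, scaling, threshold, cluster gap and members kept. The code was tested on simulated data. Python 3.11.15, NumPy 2.4.6, pandas 2.3.3, SciPy 1.17.1, statsmodels 0.14.6.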

Additional observations from a re-analysis of the deposited data

How the results depend on the processing

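Each group is 1 library, so no result has a replicate or a test, and no paired analysis was possible because each group has a single column and the columns carry no shared numbers. Depth is unknown, and dose and time labels conflict between fields. The values below are those that changed most from the reported counts and medians over members; fewer genes were tested under stricter filters and fewer members where members were dropped, and otherwise the cause of a change was not tested. Percentages in brackets are the share of all genes counted the same way. Where members were dropped, the share is still over all genes tested.

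A pseudocount of 1 left 3 of 86 members more than 2-fold higher (17.6%), 0 lower (0.627%) and a median (log2) of 0.44 at 50 ng/mL, and 4 higher (16.7%) with a median of 0.42 at 100 ng/mL, with 0 lower between the doses (0.273%). A pseudocount of 0.01 gave a median of 1.10 at 100 ng/mL. A threshold of log2 above 2 left 3 higher (1.86%) and 0 lower (0.313%) at 50 ng/mL and 2 higher (1.60%) at 100 ng/mL.

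With no filter 96 of 229 members were higher at the lower dose (26.6%) and 98 at the higher (26.3%), and between the doses 1 was higher (4.08%) and 3 lower (3.84%). When a mean of 1 FPKM or more was asked for, 44 members were left: 15 higher (37.9%) and 1 lower (1.41%) at 50 ng/mL with a median of 0.30, 13 higher (37.0%) and 0 lower (1.20%) at 100 ng/mL with a median of 0.24, and 0 lower between the doses (0.420%). With at least 0.5 FPKM in the vehicle library 10 of 47 were higher at the lower dose (33.1%) and 8 at the higher (32.3%), and the medians turned to −0.19 and −0.17.

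With the median ratio of well-expressed genes set to 0, 4 were lower at 50 ng/mL (6.35%) with a median of 0.80 and 2 lower at 100 ng/mL (4.93%) with a median of 0.72. As TPM 1 was lower at 50 ng/mL (1.20%) with a median of 1.22, and the median at 100 ng/mL was 1.16. After quantile normalization 10 were higher (9.49%) and 12 lower (9.95%) at 50 ng/mL with a median of 0.22, and 9 higher (8.68%) and 13 lower (9.22%) at 100 ng/mL with a median of 0.23.

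Removal of the GC trend left 4 higher (3.85%) at 50 ng/mL with a median of 0.10, and 4 higher (3.39%) and 2 lower (4.51%) at 100 ng/mL with a median of 0.0255, and 4 clusters had a median above 0 at each dose. With the length trend removed 12 were higher (14.1%) and 17 lower (16.4%) at 50 ng/mL with a median of 0.30, and 12 higher (13.6%) and 15 lower (15.3%) at 100 ng/mL with a median of 0.21.

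Alternatives added after the data were seen kept members overlapping no other listed gene, with 22 of 43 higher (39.4%) and 0 lower (1.78%) at 50 ng/mL and 20 higher (38.5%) and 0 lower (1.58%) at 100 ng/mL, or joined the vehicle filter to the removal of the GC trend, with 3 higher (3.11%) and a median of −0.0505 at 50 ng/mL, and 2 higher (2.84%), 2 lower (5.45%) and a median of −0.0150 at 100 ng/mL. Keeping members that share at most 10% of their windows and cluster gaps of 250 kb or 1 Mb changed little. Of the named members, ZNF574, ZNF738, ZNF792, ZNF865 and ZNF880 changed side under some setting.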
